A study of Mus musculus with 22 samples.

Results

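The early response to thyroid hormone (TH) was compared between white adipose tissue (WAT, white fat) at 6 h and striatum, the input nucleus of the basal ganglia, at 12 h. For each gene the quantity of interest was the change in WAT minus the change in striatum, both on the log2 scale and both against hypothyroid controls, so that a value above 0 is a more positive change in fat. It was measured for 12863 genes, those of the 45134 gene symbols on 1 row of both count tables whose mean normalised count exceeded 10 in each tissue. A further 4419 shared symbols passed that level in fat alone and 2065 in striatum alone, and these could not be compared. The genes nearest to that limit were Slc6a17, with a mean of 10.004 in fat and 2640.5 in striatum, and Impg2 (10.005 and 14.5) on the inner side, and Pole2 (33.9 in fat and 9.999 in striatum) and Ifit1 (178.8 and 9.997) on the outer side. The comparison used 14 of the 22 libraries of the series, namely 4 of WAT without TH, 4 of WAT at 6 h, 2 of striatum without TH and 4 of striatum at 12 h.

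All animals were labelled as wild-type male C57BL/6J mice of 8 weeks. For the control libraries of both tissues the labels give propylthiouracil (PTU) for 2 weeks, a drug that stops the thyroid from making its hormones. Those of the TH libraries name TH and the hour and do not mention PTU. The study's overview describes 1 intraperitoneal injection of T3 and T4, after PTU in the food, for WAT, and lists no procedure for making the striatum animals hypothyroid, so that for striatum only the labels speak of PTU. Tissue and hour differ together in this comparison, as do the RNA extraction (Trizol for WAT, RNeasy columns for striatum) and the way reads were assigned to genes, and their parts in a difference cannot be told apart. Nothing in the labels says whether replicates came from separate animals, and p-values measure the spread between libraries.

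Thyroid hormone acts mainly through nuclear receptors, TRα and TRβ (genes Thra and Thrb), which sit on DNA with a retinoid X receptor, hold genes down with corepressors when no hormone is bound, and recruit coactivators when T3 binds. Cells set their own T3 level, since the deiodinase DIO2 makes T3 from T4 and DIO3 inactivates both. In fat the hormone is known for its effects on lipogenesis, lipolysis and thermogenesis, and in striatum for its role in the maturation and function of projection neurons and interneurons. The circadian clock could enter these data through the hour of sampling or through the hormone, which was not tested. In its loop BMAL1 (gene Arntl) with CLOCK or NPAS2 activates the Per, Cry and Nr1d genes, whose products repress it in turn.

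Both tissues carried the markers of their labels, but several libraries stood apart. Adipocyte markers summed to 720727 to 956242 normalised counts in WAT and to 538 to 726 in striatum, where 12 striatal projection neuron markers summed to 26004 to 65756. In striatum the 10 cortical excitatory neuron markers summed to 6084 and 9794 without TH and to 12239 to 17853 at 12 h, and the projection neuron markers to 45373 and 65756 without TH and to 26004 to 41802 at 12 h, with no overlap between groups in either. Of the 10 cortical markers 5 had all TH libraries above the controls and 1 (Lamp5) had all below, and of the 12 projection neuron markers 8 had all TH libraries below, where the 6 striatum libraries separate in this way, in either direction, for 36.7% of all genes tested. The labels say male, yet Xist had 35314 normalised counts in striatum PTU replicate 6 and 26461 in striatum TH replicate 1, which had no count of Ddx3y, and at most 18.5 in the other striatum libraries. Skeletal muscle markers summed to 638722 in WAT PTU replicate 4 against 1172 in WAT TH replicate 2, and stratified epithelium markers to 4778 in WAT TH replicate 3 against 280.02 in WAT TH replicate 2, without separating the groups. The muscle marker Acta1 had 48495, 568, 1179 and 128405 in WAT PTU replicates 1 to 4. In WAT TH replicates 1 to 4 it had 3017, 391, 20014 and 1031. Beyond refits with terms or subsets for these differences, given below, their part in any result was not tested. In bulk tissue fewer cells of a type and less RNA per cell cannot be told apart.

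**Figure D1:**
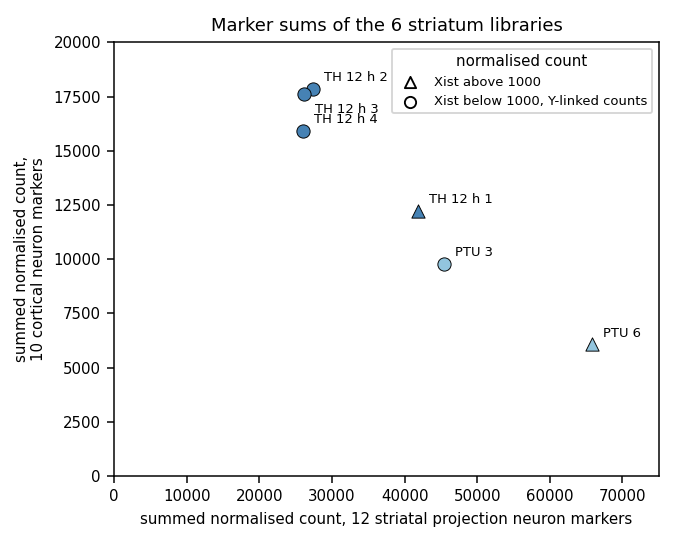
Summed normalised counts of 10 cortical excitatory neuron markers (vertical axis) against those of 12 striatal projection neuron markers (horizontal axis), 1 point per striatum library, light blue for PTU and dark blue for TH at 12 h, with triangles for the libraries with over 1000 normalised counts of Xist. The 4 TH libraries lie above and to the left of both PTU libraries, at 12239 to 17853 cortical and 26004 to 41802 striatal counts.

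The difference between the responses passed the threshold for 681 of the 12863 genes, or 5.29%. It was above 0 for 346 genes (2.69%) and below 0 for 335 (2.6%), and it exceeded 1 log2 unit in size for 334. Genes were called at an adjusted p under 0.05 in the quasi-likelihood F test of edgeR, adjusted over all genes tested by Benjamini and Hochberg, and every adjusted p below comes from that test. Taken alone, the fat response called 1077 genes higher (8.37%) and 694 lower (5.4%) at 6 h, and the striatum response called 196 higher (1.52%) and 91 lower (0.707%) at 12 h. Those 287 striatum calls numbered 49 and 8 without PTU replicates 3 and 6, 87, 92 and 145 without TH replicates 2, 3 and 4, and, since both tissues share 1 estimate of the spread, 548 and 442 without WAT PTU replicates 1 and 4. With limma voom, whose library weights could differ by tissue, 1200 genes were called in fat and 1486 in striatum. Which tissue had more calls thus depended on the method. All TH libraries lay above or all below the PTU libraries for 16.3% of genes in fat, with 4 against 4 libraries, and for 36.7% in striatum, with 4 against 2. Of the 681 called differences, 415 belonged to genes called in fat alone (253 above 0 and 162 below), 109 to genes called in striatum alone (30 above 0 and 79 below), 24 to genes called in both tissues and 133 to genes called in neither (52 above 0 and 81 below). The fitted responses had opposite signs in 558 of the 681 (81.9%), against 47.3% of all genes tested, a direction that a large difference favours by construction.

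**Figure D2:**
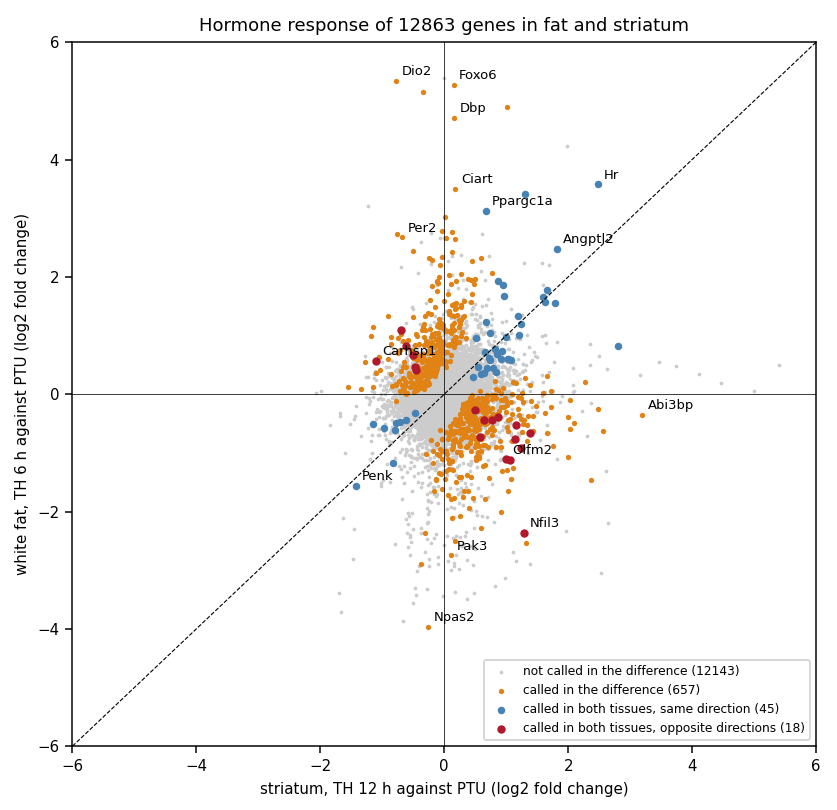
Log2 fold change at 12 h in striatum (horizontal axis) against that at 6 h in fat (vertical axis) for 12863 genes, both against PTU, with the dashed line at equal responses. Orange points are genes called in the difference, blue points the 45 called in both tissues in the same direction, of which 6 were also called in the difference, and red points the 18 called in opposite directions. Dio2, Foxo6 and Dbp lie at 5.34, 5.28 and 4.71 in fat and at -0.77, 0.15 and 0.15 in striatum, and 1 gene lies outside the axes.

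The largest difference among the 681 called genes was that of Dio2, the deiodinase that makes T3 (chromosome 12, 90724552 to 90738438 in GRCm38). In fat it had 6.67, 5.90, 17.4 and 8.68 normalised counts without TH in replicates 1 to 4, the order used throughout, and 359, 313, 493 and 472 at 6 h. In striatum it had 3212 and 3590.3 without TH (replicates 3 and 6) and 1949, 1964, 2128 and 1911 at 12 h. The groups did not overlap in either tissue, with TH libraries above the controls in fat and below them in striatum. The fat change was 5.34 ± 0.24 log2 units (± SE, here and below; adjusted p = 7.10e-09), the striatum change -0.77 ± 0.19 (adjusted p = 0.0506), which missed the threshold, and the difference 6.11 ± 0.31 (adjusted p = 1.03e-07). Normalised counts are scaled within a tissue and are not compared between tissues. In the annotation Dio2 shares exonic sequence with Gm26512 on the opposite strand, and the strand setting of the counting was not given in the sources used here.

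Of the other 5 hormone transporters and enzymes tested, Slc7a8, an amino acid transporter that also carries thyroid hormones, was called below 0 (-1.01 ± 0.19, adjusted p = 0.00916). It had 220.2, 290.1, 251 and 203 without TH and 159, 201, 150.0 and 159 at 6 h in fat, all TH libraries below all controls, and 926 and 875 and then 1123, 1335, 1355 and 1221 in striatum, all TH libraries above. Its fat change was -0.52 ± 0.13 (adjusted p = 0.013) and its striatum change 0.48 ± 0.14 (adjusted p = 0.096). The transporter gene Slc16a10 had a difference of -0.67 ± 0.25 (adjusted p = 0.125), Slc7a5 of 0.46 ± 0.35 (0.47) and the T3-binding protein gene Crym of 0.27 ± 0.58 (0.819). Among 16 receptors, retinoid partners and coregulators only Thra passed, with a difference of -0.78 ± 0.19 (adjusted p = 0.0282), a call that held in 9 of 14 fits with 1 library dropped. Thra had 1735, 2084, 2154 and 1579 without TH and 1338, 1281, 1421 and 1311 at 6 h in fat, where it fell by 0.50 ± 0.12 log2 units (adjusted p = 0.0119), and 2719 and 2671 and then 2988, 3575, 3751 and 2809 in striatum (0.28 ± 0.14, adjusted p = 0.315). The Thra gene overlaps Nr1d1 on the opposite strand, a gene with 3262, 2617, 2909 and 2549.9 in fat controls and 4958, 3592, 4734 and 4043 at 6 h. Thrb rose in fat by 0.51 ± 0.12 (adjusted p = 0.0127) and changed by 0.07 ± 0.15 in striatum (adjusted p = 0.857), and its difference of 0.44 ± 0.19 did not pass (adjusted p = 0.188). In fat 7 of these 16 genes were called higher and 1 lower, and in striatum none was called, with 3 of the 16 at an unadjusted p under 0.05. Over all genes the shares called were 8.37% higher and 5.4% lower in fat and 1.52% and 0.707% in striatum. In striatum 2344 of the 12863 genes tested had an unadjusted p under 0.05.

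The difference was called for 7 of the 13 known thyroid hormone targets tested, 4 above 0 and 3 below. The median difference over the 13 was 0.19, against 0.02 over all genes. In fat 7 of the 13 were called, all higher, and in striatum 6, all higher, where over all genes 8.37% were called higher in fat, 1.52% higher in striatum and 5.29% in the difference. The 7 called differences numbered 2 to 7 when 1 library was dropped, with 2 without striatum PTU replicate 6, and 1 with a term for cortical markers in striatum, chosen after seeing the data. With that term 22 differences were called over all genes. The study named 7 genes tested here (its Trp53ind read as Trp53inp2), drawing on several datasets that include these samples and on earlier work. They are therefore no independent evidence. Among them the difference was called for Hr, Klf9 and Thra. Hr, a corepressor of nuclear receptors, had 117, 147, 169 and 91.8 in fat controls and 1877, 1276, 1681 and 1496 at 6 h, and 40.3 and 60.1 and then 255, 294, 269 and 308 in striatum. It rose in both tissues, by 3.58 ± 0.18 in fat (adjusted p = 2.31e-08) and 2.48 ± 0.25 in striatum (0.000647), and the difference of 1.10 ± 0.30 just passed (adjusted p = 0.0487). That call held in 3 of 14 fits that left out 1 library.

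Ppargc1a, the coactivator PGC-1α of mitochondrial biogenesis, had 61.0, 67.2, 91.5 and 78.1 in fat controls and 601, 626, 682 and 699 at 6 h, and 358 and 355 and then 533, 526, 498 and 714 in striatum. All TH libraries lay above the controls in both tissues, and the rise in fat was the larger (3.13 ± 0.14 against 0.67 ± 0.16, difference 2.45 ± 0.21, adjusted p = 1.46e-05). Klf9, a Krüppel-like repressor, had 881, 585, 538 and 766 and then 2438, 2729, 2719.8 and 2963 in fat and 2009 and 2109 and then 2906, 2969, 2792 and 3016 in striatum. Its fat change was 1.97 ± 0.14 (adjusted p = 4.25e-07), its striatum change 0.50 ± 0.16 (0.117), and the difference 1.47 ± 0.20 (0.00127). Gpd2, the mitochondrial glycerol-3-phosphate dehydrogenase, rose in fat from 1738, 1007, 1204 and 1106 to 2439, 2800.2, 3154 and 3773 (1.27 ± 0.16, adjusted p = 0.000139) and changed by 0.23 ± 0.20 in striatum (0.582), with a difference of 1.03 ± 0.25 (0.0307) that was called in 6 of 14 fits with 1 library dropped.

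Sema7a and Nrgn, with differences below 0, have known roles in neurons. Sema7a, a membrane semaphorin, had 339 and 304 and then 661, 728, 770.3 and 709.9 in striatum and 406, 316, 323 and 224 and then 392, 341, 343 and 371 in fat. It rose in striatum alone (1.16 ± 0.17, adjusted p = 0.00634, against 0.18 ± 0.14 in fat, 0.391), and the difference was -0.98 ± 0.22 (0.0203). Nrgn, which encodes the calmodulin-binding protein neurogranin, rose in striatum from a mean of 3237 to 6878 normalised counts (1.09 ± 0.20, adjusted p = 0.0151) and stood at 52.0 and 51.4 in fat, with a difference of -1.08 ± 0.28 (0.0383). Gli2 rose in both tissues, by 1.33 ± 0.22 in fat (0.00118) and 1.18 ± 0.27 in striatum (0.0341), with a difference of 0.14 ± 0.33 (0.832). The negative differences of Sema7a and Nrgn stood beside the higher cortical marker sums of the striatum TH libraries. With a term for those sums, chosen after seeing the data, the Sema7a difference had an adjusted p of 0.679, and 22 differences were called over all genes. Those sums separated all striatum TH libraries from both controls, so the refit cannot tell their part from that of TH. The part of the cortical sums in these differences was not tested.

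**Figure D3:**
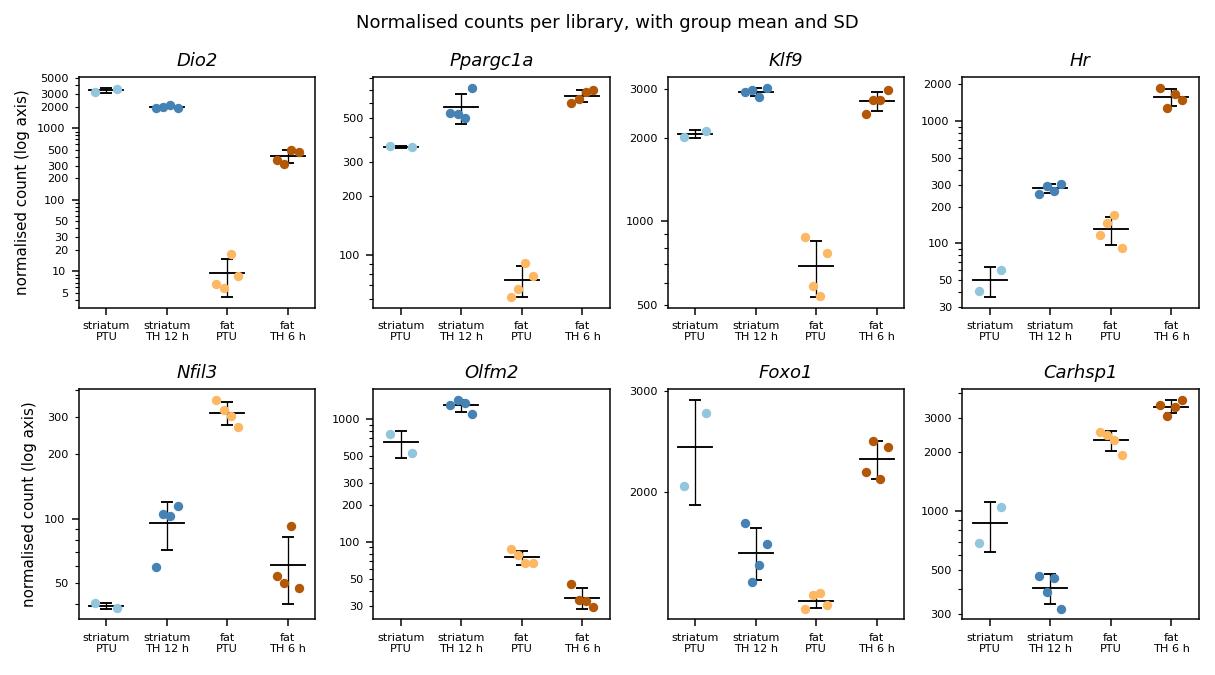
Normalised counts per library (log axis) of 8 genes in striatum without TH (n = 2) and at 12 h (n = 4) and in fat without TH and at 6 h (n = 4 each), with the group mean (line) and SD (bars). Dio2, Ppargc1a, Klf9 and Hr had differences above 0, whereas Nfil3, Olfm2, Foxo1 and Carhsp1 were called in opposite directions in the 2 tissues.

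Clock output genes had the highest share of called differences among the lists examined. Of 14 core clock genes tested 7 were called, 4 above 0 and 3 below, and of 12 output genes 8 were called, 7 above 0 and 1 below, against 5.29% of all genes. In fat 9 of the 14 core genes and 11 of the 12 output genes were called, and in striatum 1 (Csnk1e) and 1 (Nfil3). Among all genes tested 8.37% were called higher and 5.4% lower in fat, and 1.52% and 0.707% in striatum. The hour of day of the libraries is not given in the sources used here, and 6 h and 12 h after an injection need not fall at the same hour, so a clock time that differs between the groups cannot be told apart from the hormone.

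Short sequences that clock factors bind were sought in the 250 bases upstream of the start sites of these 15 called genes, to show what letters their promoters carry. Of the 15, 13 had a window in the RefSeq promoter table (GRCm38.p6). The E-box CACGTG, the site of CLOCK and BMAL1, was found upstream of Ciart, Per1 and both starts of Tef, 3 of 13 genes, and in 6.02% of all 32851 windows. The D-box TTATGTAA, the site of DBP, TEF, HLF and NFIL3, was found upstream of Per3 and in 0.819% of windows, and TAGGTCA, a half-site of the REV-ERB and ROR receptors, upstream of Nfil3 and in 2.23%. AGGTCA, the half-site of many nuclear receptors, which lies within TAGGTCA, was found upstream of Clock, Nfil3, Nr1d2 and Per1 and in 4607 of the 32851 windows. A direct repeat of AGGTCA with 4 bases between, the classical element of thyroid hormone receptors, was found in 0 of the 13 genes and in 0.0152% of windows. Counted per gene symbol, as for the 13 genes, the E-box was found in 6.86%, the D-box in 0.977% and TAGGTCA in 2.55% of 27025 symbols. For AGGTCA and for the direct repeat these shares were 15.8% and 0.0148%. Both strands were searched, and the match of Nfil3 lies on the opposite strand, so that the printed sequence carries its reverse complement, TGACCTA. A match is a description of letters and says nothing about binding, nor does its absence from a window of this length. The 5 genes with an E-box, a D-box or TAGGTCA are shown 5′ to 3′ on their own strand with these matches in capitals (the second start of Tef is left out), to be read beside their values in fat.
Ciart (chr3:95882229-95882478, minus strand): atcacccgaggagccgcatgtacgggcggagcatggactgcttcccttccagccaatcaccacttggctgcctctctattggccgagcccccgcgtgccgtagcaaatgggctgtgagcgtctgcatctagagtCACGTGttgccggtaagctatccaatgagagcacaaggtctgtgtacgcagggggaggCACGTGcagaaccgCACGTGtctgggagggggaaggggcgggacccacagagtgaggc
Nfil3 (chr13:52981040-52981289, minus strand): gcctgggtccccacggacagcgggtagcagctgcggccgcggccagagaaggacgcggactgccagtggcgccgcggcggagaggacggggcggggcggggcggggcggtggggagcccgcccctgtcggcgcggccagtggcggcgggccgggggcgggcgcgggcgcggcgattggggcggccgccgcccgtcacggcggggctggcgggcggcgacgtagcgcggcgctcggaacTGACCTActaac
Per1 (chr11:69098699-69098948, plus strand): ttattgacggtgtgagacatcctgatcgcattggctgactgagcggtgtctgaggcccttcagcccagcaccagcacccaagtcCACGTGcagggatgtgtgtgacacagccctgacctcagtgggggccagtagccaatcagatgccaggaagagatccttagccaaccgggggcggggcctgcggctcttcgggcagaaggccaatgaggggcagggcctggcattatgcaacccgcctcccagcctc
Per3 (chr4:151044666-151044915, minus strand): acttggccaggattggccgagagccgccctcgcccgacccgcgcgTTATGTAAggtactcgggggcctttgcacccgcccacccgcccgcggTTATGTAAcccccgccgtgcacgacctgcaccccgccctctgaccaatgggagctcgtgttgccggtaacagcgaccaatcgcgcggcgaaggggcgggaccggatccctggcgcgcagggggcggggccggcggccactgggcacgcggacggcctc
Tef (chr15:81802423-81802672, plus strand): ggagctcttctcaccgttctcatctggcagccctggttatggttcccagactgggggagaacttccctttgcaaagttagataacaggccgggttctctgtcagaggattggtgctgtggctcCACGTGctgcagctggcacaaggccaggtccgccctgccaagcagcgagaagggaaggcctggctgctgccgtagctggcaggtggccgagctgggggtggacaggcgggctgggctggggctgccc

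Dbp, Tef and Hlf encode the PAR bZIP factors that drive D-box genes. Dbp had 56.2, 105, 53.1 and 243 normalised counts in fat controls and 2355, 2648, 3394 and 3327 at 6 h, every TH library above every control, and 672 and 856 and then 1072, 736, 776 and 818 in striatum, where the groups overlapped. It rose in fat by 4.71 ± 0.39 (adjusted p = 2.36e-06) and changed by 0.15 ± 0.40 in striatum (0.891), and the difference was 4.55 ± 0.53 (0.000246). Hlf had 56.2, 51.9, 57.7 and 104 and then 471, 544, 494 and 664 in fat and 1976 and 2641 and then 2632, 2210.4, 1916 and 2561 in striatum, with a difference of 3.01 ± 0.29 (5.98e-05). Tef, with E-boxes upstream of both starts, had 475, 613, 522 and 849.6 and then 2609, 2979, 3229 and 3247 in fat and 2019.6 and 2256 and then 2103, 1800.4, 1781 and 1799 in striatum, with a difference of 2.49 ± 0.23 (3.91e-05). Ciart, a repressor of CLOCK and BMAL1 with 3 E-boxes in its window, had 7.62, 11.8, 11.0 and 23.6 and then 65.7, 122, 245 and 170.0 in fat and 81.7 and 71.5 and then 94.2, 83.2, 82.1 and 87.3 in striatum. Its fat change was 3.51 ± 0.38 (3.48e-05) and its striatum change 0.18 ± 0.40 (0.867).

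The Per genes, repressors of the loop, were all called above 0. Per2 had 57.2, 70.8, 63.2 and 96.7 in fat controls and 352, 485, 495 and 493 at 6 h, and in striatum 328 and 498 and then 274, 231, 232 and 291, so that its TH libraries lay above the controls in fat and below them in striatum. The changes were 2.67 ± 0.19 in fat (4.51e-07) and -0.68 ± 0.20 in striatum (0.0924), and the difference 3.36 ± 0.27 (1.15e-05). Per3, with 2 D-boxes in its window, had 82.0, 250.0, 188 and 244 and then 1172, 1215, 1245 and 1552 in fat and 362 and 391 and then 366, 407, 379 and 494 in striatum, with a difference of 2.64 ± 0.37 (0.00133). Per1 had 369, 296, 404 and 461 and then 1131, 981, 1027 and 916 in fat and 364 and 450.0 and then 379.7, 369, 358 and 606 in striatum, with a difference of 1.33 ± 0.27 (0.0119). Nr1d2, which encodes the repressor REV-ERBβ, had a difference of 1.64 ± 0.33 (0.0117), whereas Nr1d1 rose in fat by 0.61 ± 0.11 (0.00283) with a difference of 0.46 ± 0.18 that did not pass (0.149).

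The activators of the loop fell in fat. Npas2 had 294, 230.0, 326 and 136 in fat controls and 16.1, 17.6, 19.2 and 10.8 at 6 h, so it fell by 3.96 ± 0.27 log2 units (adjusted p = 3.91e-07), and in striatum 614 and 748 and then 592, 597, 594 and 483 (-0.27 ± 0.24, 0.599). Its difference was -3.70 ± 0.37 (7.92e-05). Arntl had 660.5, 413, 492 and 289 and then 115, 94.5, 78.7 and 71.6 in fat and 198 and 213 and then 163, 179.6, 145 and 177 in striatum, with a difference of -2.07 ± 0.34 (0.00372). Clock had 1112, 1217, 1081 and 1003 and then 647, 655, 655 and 618 in fat and 931 and 956 and then 852, 840.3, 785 and 796 in striatum, where all 4 TH libraries also lay below both controls, and the smaller difference of -0.57 ± 0.12 passed (0.0164). Rora changed by -0.11 ± 0.17 in fat (0.702) and Cry1 by -0.22 ± 0.19 (0.45), and their differences of -0.01 ± 0.28 and 0.31 ± 0.30 did not pass (0.995 and 0.582).

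Nfil3 encodes a repressor that competes with DBP, TEF and HLF at D-boxes, and it was the 1 output gene called below 0. It had 360.3, 323, 302 and 269 in fat controls and 54.2, 50.2, 92.6 and 47.5 at 6 h, and 40.3 and 38.4 and then 59.9, 106, 103 and 115 in striatum. It fell by 2.37 ± 0.23 in fat (adjusted p = 1.06e-05) and rose in striatum by 1.28 ± 0.30 (0.0436), and the difference was -3.65 ± 0.38 (0.000103). Of the other output genes, Wee1, a kinase of the cell cycle, had a difference of 1.59 ± 0.26 (0.00383), Usp2, a deubiquitinase, of 2.29 ± 0.51 (0.0203), and Por, the electron donor of cytochrome P450 enzymes, of 1.02 ± 0.19 (0.0091), each with a rise in fat. Bhlhe40 and Bhlhe41, the repressors DEC1 and DEC2, rose in fat by 1.63 ± 0.39 (0.0128) and 0.98 ± 0.24 (0.0167) and missed the threshold in the difference (0.21 and 0.0902).

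Both clock counts were smaller without either striatum control and with a term for the cortical marker sum. That sum separated all striatum TH libraries from both controls, so the term cannot tell its part from that of TH. With it 22 differences were called over all genes. Without striatum PTU replicate 6 the called core genes numbered 4 and the output genes 6, without replicate 3 they numbered 6 and 7, and with a term for the cortical marker sum in striatum, chosen after seeing the data, they numbered 2 and 0.

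**Figure D4:**
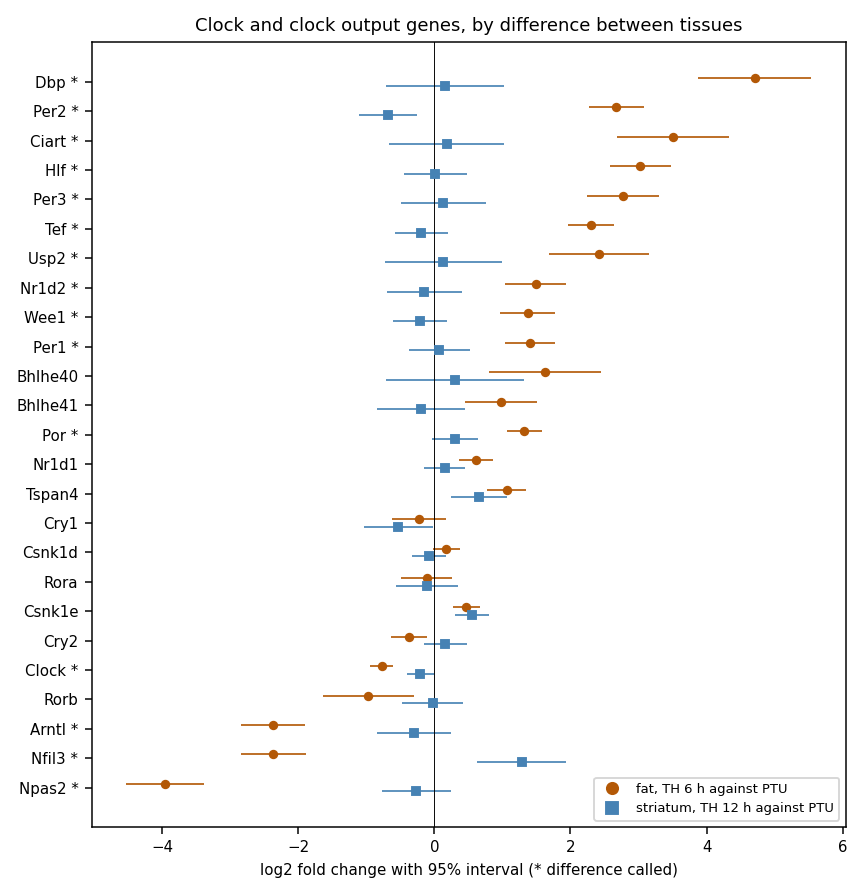
Log2 fold change with 95% interval of 25 clock and clock output genes in fat at 6 h (brown circles) and striatum at 12 h (blue squares), ordered by the difference, with an asterisk on the 15 called in the difference. Tsku, whose striatum interval is the widest, is left out. The fat values run from Npas2 at -3.96 to Dbp at 4.71, and all striatum values but those of Nfil3 lie within 1 log2 unit of 0.

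In all, 18 genes (0.14% of those tested) were called in both tissues in opposite directions, 6 higher in fat and lower in striatum and 12 the reverse, and the difference was called for all 18. Foxo1, a forkhead factor restrained by insulin signalling, had 1249, 1319.6, 1334 and 1268 in fat controls and 2166, 2455, 2105 and 2394 at 6 h, and 2047 and 2751 and then 1762, 1393, 1489 and 1622 in striatum. Its changes were 0.82 ± 0.10 (0.000135) and -0.61 ± 0.12 (0.0249), and the difference 1.43 ± 0.16 (0.00022). Carhsp1, a protein that binds RNA, had 2521, 2458, 2295 and 1929 and then 3471, 3073, 3392 and 3699 in fat and 693 and 1046 and then 470.0, 387, 455 and 318 in striatum, a difference of 1.66 ± 0.23 (0.00107). The kinase gene Jak2, which acts below cytokine receptors, had 687, 665, 755 and 768 and then 1081, 1073, 886 and 939.7 in fat and 588 and 583 and then 442, 407, 435 and 397 in striatum, a difference of 0.95 ± 0.14 (0.00158). Ppp4r4, a phosphatase subunit (1.80 ± 0.22, 0.000371), the transcriptional repressor Zeb1 (1.17 ± 0.16, 0.000953) and Ints6 of the Integrator complex (0.88 ± 0.11, 0.000624) also rose in fat and fell in striatum.

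In the reverse direction, Olfm2, a secreted olfactomedin, had 87.7, 77.8, 67.7 and 67.0 in fat controls and 45.0, 33.4, 33.0 and 29.2 at 6 h, and 761 and 533 and then 1302, 1439, 1357 and 1097 in striatum. It fell by 1.11 ± 0.17 in fat (0.000798) and rose in striatum by 1.01 ± 0.17 (0.00983), a difference of -2.11 ± 0.24 (0.000229). Gpr153, an orphan receptor, had 203, 252, 246 and 192 and then 129, 132, 74.5 and 75.8 in fat and 123 and 116 and then 248, 217, 269 and 263 in striatum (-2.18 ± 0.30, 0.00111). Prr13 (-1.26 ± 0.18, 0.0013), the actin-filament protein gene Afap1 (-1.21 ± 0.18, 0.00185) and Ephb2, a receptor for ephrin-B ligands (-1.69 ± 0.26, 0.00225), followed the same pattern. The other genes of this direction, beside Nfil3, were Aes, Aldh1a1, Dact3, Laptm4b, Npnt and Wnt9a. For all 18 genes the striatum ratio had the same sign within the libraries with Y-linked counts (1 control and 3 TH libraries) and within those with high Xist (1 of each), values that also entered the calls. Either set of striatum libraries alone holds 1 control, so calls within a set cannot decide about these genes. With the term for cortical markers the count of genes called in opposite directions was 0. That term left 5 striatum calls over all genes, so this count cannot decide about them either. Without striatum PTU replicate 6 the count of such genes was 1, without replicate 3 it was 5, and without WAT PTU replicate 1 it was 43. It was 6, 6 and 10 without striatum TH replicates 2, 3 and 4, 35 without WAT PTU replicate 4, and 11 and 7 without WAT TH replicates 1 and 4.

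A further 45 genes (0.35%) were called in both tissues in the same direction, 36 higher and 9 lower, and the difference was called for 6 of them. Without striatum PTU replicate 6 the 45 were 3, without replicate 3 they were 8, and without WAT PTU replicate 1 they were 99, and without striatum TH replicates 2, 3 and 4 they were 18, 18 and 27. Beside Hr and Ppargc1a, Cntfr, a receptor for ciliary neurotrophic factor, rose more in fat, from 56.2, 49.5, 54.0 and 57.1 to 217, 219.8, 225 and 172, than in striatum, from 301 and 466 to 777, 639, 657 and 719 (difference 1.07 ± 0.21, adjusted p = 0.0116). For Spsb1, a substrate adaptor of ubiquitin ligases, the counts were 249, 308, 272 and 285 and then 527, 608, 476 and 582 in fat and 89.3 and 90.2 and then 167, 194, 176 and 177 in striatum. The changes were 0.98 ± 0.10 in fat and 0.99 ± 0.14 in striatum, and the difference was -0.01 ± 0.36 (95% interval half-width). Loxl1, an enzyme that cross-links elastin, had 749, 671, 694 and 554 and then 2225, 2512, 2263 and 2189 in fat and 35.9 and 36.3 and then 78.5, 109, 109.5 and 158 in striatum, with a difference of 0.13 ± 0.62 (95% half-width). Stat5a, a transducer of cytokine and growth hormone signals, had 667, 598, 732 and 506 and then 1903, 1829, 1873 and 1774 in fat and only 7.63 and 14.5 and then 41.2, 32.5, 24.5 and 56.0 in striatum, and its difference of -0.23 ± 0.86 (95% half-width) was loosely bounded.

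Trp53inp2, which takes part in autophagy, rose by 0.69 ± 0.12 in fat and 0.86 ± 0.16 in striatum, with a difference of -0.17 ± 0.42 (95% half-width). Nfix, a nuclear factor I gene, had -0.06 ± 0.35, Camta2 -0.15 ± 0.38, Slc41a1, a magnesium transporter, 0.06 ± 0.36, and the casein kinase gene Csnk1e, which phosphorylates PER proteins, -0.08 ± 0.31 on the same scale. Angptl2, an angiopoietin-like secreted protein, rose by 2.48 ± 0.18 in fat and 1.82 ± 0.34 in striatum, with a wide interval of the difference (0.66 ± 0.88). Penk, the gene of the enkephalins, fell in both, from 319, 246, 173 and 313 to 56.5, 108, 97.9 and 90.0 in fat and from 9488 and 14299 to 6596, 3882, 3401 and 3811 in striatum. Penk is itself 1 of the 12 striatal projection neuron markers whose sum was lower in the striatum TH libraries, and whether its fall there goes beyond theirs was not tested. Over all genes, the 95% interval of the difference lay within 1 log2 unit of 0 for 8382 of 12863 and within 0.5 for 1847, with a median half-width of 0.49.

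**Figure D5:**
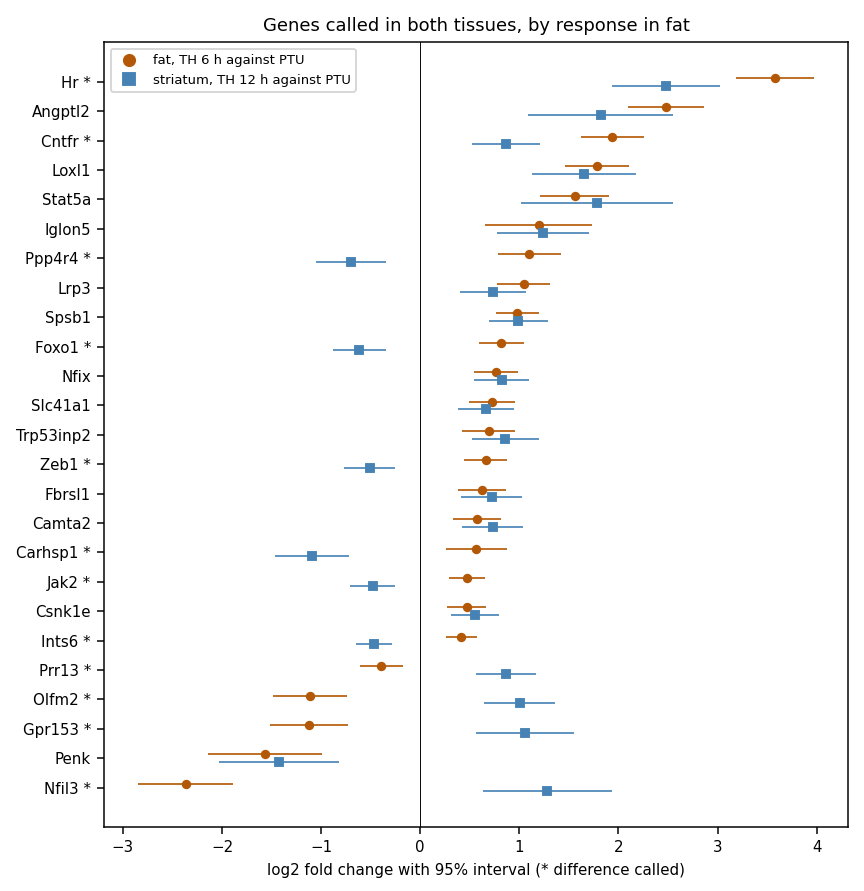
Log2 fold change with 95% interval in fat at 6 h (brown circles) and striatum at 12 h (blue squares) of 15 genes called in the same direction and 10 called in opposite directions, ordered by the fat value, with an asterisk on genes called in the difference. Hr tops the list at 3.58 in fat and 2.48 in striatum, and Nfil3 closes it at -2.37 and 1.28.

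The other genes with the smallest p-values above 0 rose in fat, and none of those named here was called in striatum. Zhx3, a homeobox repressor, had 344, 344, 340.5 and 283 in fat controls and 1281, 1422, 1359 and 1386 at 6 h, and 451 and 469 and then 519, 554, 565 and 585 in striatum (difference 1.78 ± 0.13, adjusted p = 5.92e-06). Paqr9, a receptor of the progestin and adipoQ family, had 695, 611, 590.4 and 495 and then 2856, 2592, 2965 and 3646 in fat and 1078 and 1081 and then 1144, 1127, 957 and 970.0 in striatum (2.37 ± 0.19, 1.15e-05). Syt12, a synaptotagmin, had 221, 264, 233 and 160.0 and then 1110.1, 1095, 1179 and 1404 in fat (2.95 ± 0.24, 1.15e-05), and Atl2, an atlastin that shapes the endoplasmic reticulum, had 1314, 1293, 1153 and 1468 and then 3105, 3369, 3242 and 3511 (1.66 ± 0.14, 1.18e-05). Rcl1, a protein of ribosome biogenesis, had 316, 270.1, 276 and 272 and then 1115, 1056, 1027 and 1118 in fat and 113 and 140.0 and then 137, 122, 111 and 97.8 in striatum (2.04 ± 0.17, 1.54e-05). By size, Foxo6, a forkhead factor, went from 6.67, 1.18, 1.83 and 2.48 to 72.6, 99.5, 173 and 167 in fat and stood at 149 and 223 and then 205, 238, 209.6 and 175 in striatum, a difference of 5.13 ± 0.54 (0.000101). Like Dio2, Foxo6 passed the count minimum in fat only through its TH libraries, and its fat change rests on low control counts. Slc27a2, a fatty acid transport protein and acyl-CoA synthetase, had a difference of 3.50 ± 0.56 (0.00311).

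Below 0, Pak3, a p21-activated kinase, had 68.6, 126, 89.7 and 78.1 in fat controls and 13.8, 11.7, 11.7 and 15.8 at 6 h, and 1590.4 and 1394 and then 1710.2, 1685, 1607 and 1468 in striatum (difference -2.86 ± 0.27, adjusted p = 3.91e-05). Mal2, a membrane trafficking protein, had 268, 212, 217 and 167 and then 46.1, 61.0, 56.4 and 61.6 in fat and 1598 and 1349.9 and then 2025, 2171, 2041 and 1571 in striatum (-2.34 ± 0.24, 7.92e-05). Arhgap20, a GTPase-activating protein, had 161, 118, 104 and 206 and then 28.8, 50.2, 34.1 and 25.0 in fat (-2.32 ± 0.33, 0.00138). Abi3bp, an extracellular matrix protein, had a large difference (-3.54 ± 0.94, 0.0446) with striatum counts of 112 and 33.2 and then 90.3, 459.7, 1444 and 643, where the groups overlapped, and it changed sign to 1.03 with the term for cortical markers (adjusted p = 0.861). Its call held in 3 of 14 fits with 1 library dropped. Cyp26b1, which degrades retinoic acid, had 51.2 and 22.8 and then 169.7, 192, 72.7 and 153 in striatum and 98.2, 101, 339 and 108 and then 112, 76.1, 53.2 and 70.8 in fat (-3.06 ± 0.73, 0.0284). Rasl11b, a small GTPase, had a difference of -2.92 ± 0.65 (0.0194).

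None of 19 genes of fatty acid and triglyceride synthesis was called (edgeR; 3 of 19 at an unadjusted p under 0.05), although in fat 2 were called higher (Mlxipl, the carbohydrate response factor ChREBP, by 1.30 ± 0.28, 0.00778, and Dgat2, which makes triglyceride, by 0.79 ± 0.15, 0.00348) and 1 lower (Elovl6, -0.64 ± 0.17, 0.0212). None of 79 respiratory chain and ATP synthase subunits was called either (9 of 79 at an unadjusted p under 0.05), with a median difference of -0.13. Among all 12863 genes tested, 2880 had an unadjusted p under 0.05 in the difference, so these unadjusted counts are no sign of an effect. Mitochondrial ribosome proteins gave 3 of 76, fatty acid oxidation 1 of 17 (Acadm, 0.63 ± 0.17, 0.0462), cholesterol synthesis and uptake 1 of 18 (Pmvk, -1.47 ± 0.30, 0.0142), glycolysis and glucose uptake 2 of 20 (Pfkp, -0.93 ± 0.23, 0.0323, and Slc2a3, 1.03 ± 0.28, 0.0497) and collagens 2 of 27 (Col6a4, 2.17 ± 0.50, 0.0231, and Col15a1, -1.56 ± 0.36, 0.024). The share of all genes was 5.29%, below that of 4 of these lists (10% for glycolysis, 7.41% for collagens, 5.88% for fatty acid oxidation and 5.56% for cholesterol) and above that of the mitochondrial ribosome (3.95%). With 1 library dropped, Slc2a3 was called in 1 of 14 fits, Acadm in 2 and Pfkp in 6.

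Lipolysis and adrenergic signalling gave 3 of 13. Adra2a, the α2A adrenergic receptor, had 123 and 114 and then 358, 394, 399 and 408 in striatum and 28.6, 46.0, 49.4 and 37.2 and then 38.0, 46.8, 20.2 and 32.5 in fat, so it rose in striatum alone (1.72 ± 0.23, 0.00452) with a difference of -1.93 ± 0.31 (0.00331). Gnas, the stimulatory G protein subunit, rose in striatum from 11230.0 and 9768 to 16395, 16492, 16431 and 15354 (0.62 ± 0.10, 0.00956; difference -0.84 ± 0.13, 0.00246). Prkar2b, a regulatory subunit of protein kinase A, had a difference of 1.09 ± 0.24 (0.0184). G0s2, an inhibitor of lipolysis, fell by 1.85 ± 0.26 in fat (0.000315) and stood at 40.3 and 37.6 in striatum, with a difference of -1.75 ± 0.51 that did not pass (0.0631). Of 13 Krüppel-like factors Klf9 and Klf13 (1.03 ± 0.20, 0.0116) were called, of 36 potassium channel genes Kcna1 (1.28 ± 0.30, 0.0271), of 16 immediate early genes Jun (-1.48 ± 0.36, 0.0309), of 15 glucocorticoid response genes Per1, and of 12 heat shock protein genes Dnaja1 (0.63 ± 0.14, 0.0227). The share of all genes was 5.29%, against 23.1% for lipolysis and adrenergic signalling and 15.4% for Krüppel-like factors. Potassium channels had 2.78%, immediate early genes 6.25%, glucocorticoid response genes 6.67% and heat shock proteins 8.33%, so their single calls say little about these families.

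Marker sums that moved with the groups stood beside these results. In fat the 9 brown adipocyte markers summed to 1703 to 3163 normalised counts without TH and to 5300.3 to 9877 at 6 h, and in striatum to 3948 and 4224 without TH and to 3047 to 3848 at 12 h. Dio2 and Ppargc1a are themselves on that list. In fat Cox7a1 (362), Zic1 (18.1) and Kng2 (6.67) were highest in a control library, and Cox8b (2076) and Elovl3 (203) in a TH library. Cidea overlapped between the fat groups, at 719 to 1671 without TH and 1251 to 2520 at 6 h. In striatum Dio2 alone had 1911 to 3590 normalised counts. Ucp1, the uncoupling protein of brown fat, had 4.77, 20.05, 272 and 102 in fat controls and 1691, 2537, 3916 and 3152 at 6 h, and at most 1.90 in any striatum library, so it was outside the comparison. In striatum the leukocyte markers summed to 1136 and 1252 without TH and to 967 to 1098 at 12 h. The part of these in the differences was not tested.

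The called differences varied in how far they depended on single libraries. Of the 65 named genes called in the difference, 36 kept their call whichever of the 14 libraries was dropped, and 11 were called in all of these and in all 16 other alternatives that tested them. Those 11 were Atl2, Dio2, Foxo6, Mal2, Pak3, Paqr9, Per2, Ppargc1a, Rcl1, Syt12 and Zhx3. Of these, Dio2 and Foxo6 passed the count minimum in fat only through their TH libraries. Over all genes the count of calls fell from 681 to 149 without striatum PTU replicate 6, to 305 without replicate 3, to 357 and 406 without striatum TH replicates 2 and 3, and to 419 without WAT TH replicate 4. With the term for cortical markers in striatum it was 22, and the median SE of the striatum change over 106 named genes went from 0.200 to 0.413. The genes called above 0 had a median transcript GC content of 47.8% and those below 0 of 53.1%, against 49.6% of all genes, and with GC offsets, chosen after seeing the data, 632 genes were called. In 20 of the genes tested the WAT row differed by under 2% from another row in every library, 15 of them were called, and 666 calls lay outside such rows.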

How the data were processed

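RNA-seq libraries of mouse striatum and white fat were compared. The counts per gene are those the authors deposited, 1 table per tissue, made per the labels with Bowtie2 2.2.6.2 among the tools named; the annotation release and strand setting are not given in the sources used here. Library totals were 8844156 to 10163849 counts in striatum and 17298747 to 26963433 in fat. TMM factors were computed within each tissue, and 1 edgeR 4.0.16 quasi-likelihood model (R 4.3.3) with 4 groups and no covariate gave both responses and their difference, with 10 residual degrees of freedom. Genes needed a mean normalised count above 10 in each tissue. The script was tested on simulated data, where 35 of 100 planted differences of 1 log2 unit and 95 of 100 of 2 log2 units were called. Alternatives were DESeq2 1.42.0, limma 3.58.1 voom with library weights by tissue, all 22 libraries, other scalings and filters, and a replicate block. An Xist term and leaving out each library were also used. Terms or subsets for cortical markers, Xist, fat makeup and GC content were chosen after seeing the data.

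The comparison and the gene lists were chosen with earlier results of these data known. Named genes were the 10 with the smallest p in each direction, the 5 largest differences in each direction among calls above 50 counts in both tissues, up to 10 called in opposite and 15 in the same direction, up to 4 called members of each list, every clock gene and gene the study named, and members of marker lists that moved with a group. Other list members were named after their values were seen. Some list members are not reported here.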

Additional observations from a re-analysis of the deposited data

Results flagged for a closer look

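The difference between the responses of fat at 6 h and striatum at 12 h was called for 681 genes, with tissue and hour differing together. Single libraries stood apart from the other 3 of their group in 22 of 315 gene and group combinations of the named genes, where chance alone flags about 1 in 20 groups. The values are normalised counts. In striatum TH replicate 1 the genes so placed were Adora2a at 1319.7 (others 748 to 824), Klf13 at 453 (others 601 to 619.8), Pde10a at 8359.5 (others 5649.8 to 5687), Penk at 6596 (others 3401 to 3882), Ppp1r1b at 5878 (others 3839 to 4125) and Tef at 2103 (others 1781 to 1800.4). In striatum TH replicate 4 the genes so placed were Aqp1 at 59.8 (others 1.96 to 9.13), Gnas at 15354 (others 16395 to 16492), Npas2 at 483 (others 592 to 597), Per1 at 606 (others 358 to 379.7) and Ppargc1a at 714 (others 498 to 533). In fat PTU replicate 1 the genes so placed were Rcl1 at 316 (others 270.1 to 276) and Tsku at 1559 (others 173 to 335). In fat PTU replicate 4 the genes so placed were Hlf at 104 (others 51.9 to 57.7) and Zhx3 at 283 (others 340.5 to 344). In fat TH replicate 3 the genes so placed were Acta1 at 20014 (others 391 to 3017) and Nfil3 at 92.6 (others 47.5 to 54.2). In fat PTU replicate 2 the gene so placed was Rasgrf2 at 439.9 (others 284 to 304). In fat PTU replicate 3 the gene so placed was Cyp26b1 at 339 (others 98.2 to 108). In fat TH replicate 1 the gene so placed was Per2 at 352 (others 485 to 495). In fat TH replicate 2 the gene so placed was Csnk1e at 782 (others 919 to 947). In fat TH replicate 4 the gene so placed was Cntfr at 172 (others 217 to 225).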

How the results depend on the processing

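The 681 called differences became 1180 with DESeq2 and 375 with no filter on low counts, and, chosen after seeing the data, 22 with a term for cortical markers in striatum, 106 with striatum libraries with Y-linked counts alone and 23 with those with high Xist alone. Leaving out 1 library gave 149 to 920. The 287 striatum calls became 184 with all 22 libraries, 785 with DESeq2, 1486 with limma voom, 152 with an Xist term, 5 with the cortical term, 7 with Y-linked libraries alone, 0 with high Xist libraries alone (699 at an unadjusted p under 0.05), and 187 with GC offsets, and 8 to 548 with 1 library left out. The 45 genes called in the same direction became 123 with DESeq2, 132 with voom, 30 with the Xist term, 2 with the cortical term, 4 with Y-linked libraries alone and 0 with high Xist libraries alone, and 3 to 99 with 1 library left out. The 18 called in opposite directions became 11 with all 22 libraries, 63 with DESeq2, 48 with voom, 11 with a minimum of 1, 8 with no filter, 10 with an Xist term, 30 without the fat libraries richest in muscle and epithelium markers, and 0 with the cortical term or with either set of striatum libraries alone, and 1 to 43 with 1 library left out. The 1771 fat calls became 930 with high Xist striatum libraries alone and otherwise stayed within 1.5 times, at 1230 to 2320 with 1 library left out. Replicate numbers did not pair the fat libraries (correlations of deviations -0.40, 0.17, -0.45 and -0.21), and with the replicate block there were 507 called differences, 454 of them shared, 138 striatum calls, 30 genes called in the same direction and 13 in opposite directions. Abi3bp changed sign, to 1.03 with the cortical term. In the voom fit, with library weights by tissue, 1200 genes were called in fat and 1486 in striatum. The cause of these changes was not tested. The median SE of the difference was 0.231, and the part of depth in it was not tested.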
